A study of Mus musculus with 6 samples.

Results

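The dystrophin glycoprotein complex was examined in the tibialis anterior (TA) muscle of old mice through 8 genes chosen by name: Dmd, Utrn, Dag1, Sgca, Sgcb, Sgcd, Sntb1 and Dtna. All 8 were listed among the 16800 genes with a TPM value and the 45777 genes with a count, and all 8 passed the filter on low counts. RNA-Seq covered 6 TA libraries, each from 1 male C57BL/6J mouse aged 24 months per the labels. The 3 vehicle mice received solvent alone, and the other 3 received BML-260, a small molecule used to inhibit the phosphatase DUSP22, at 5 mg/kg by intraperitoneal injection for 1 month. All 6 mice were old, and no young and no dystrophin-deficient group was analysed here.

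Dystrophin is a long rod-like protein under the membrane of the muscle fiber. It binds actin at one end and the transmembrane dystroglycan at the other, and so links the cytoskeleton to laminin outside the cell. Sarcoglycans stabilize dystroglycan in the membrane, and dystrobrevin and the syntrophins form a cytoplasmic arm that holds ion channels and signaling enzymes. Loss of dystrophin or of the sarcoglycan encoded by Sgca, Sgcb or Sgcd causes muscular dystrophy. Utrophin, the paralog of dystrophin, occupies mainly the neuromuscular and myotendinous junctions of mature fibers.

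The members' genes differ widely in size and place. In the RefSeq annotation of the mouse build GRCm38.p6, Dmd spans chrX:82814664-85205050, or 2390 kb, and Utrn spans chr10:12382187-12869888. Dag1 lies at chr9:108204861-108263977, Sgca at chr11:94962777-94976327, Sgcb at chr5:73632749-73647737 and Sgcd at chr11:46971077-47989451. Sntb1 lies at chr15:55636388-55907302. Dmd has several promoters, and every count and TPM value given here is for the whole gene, so transcripts from all of its start sites enter 1 value. Both start sites of Dmd held in the RefSeq table are shown by the 250 bases before them, because the Dmd value that leads the comparison sums over them. The first lies at chrX:82948620-82948869 and the second, towards the 3′ end of the gene, at chrX:85048045-85048294, both on the plus strand and written 5′ to 3′. Capitals mark the E-box, CANNTG, which muscle regulatory factors such as MyoD can bind, and the CArG box, which serum response factor can bind.
Dmd, first start site: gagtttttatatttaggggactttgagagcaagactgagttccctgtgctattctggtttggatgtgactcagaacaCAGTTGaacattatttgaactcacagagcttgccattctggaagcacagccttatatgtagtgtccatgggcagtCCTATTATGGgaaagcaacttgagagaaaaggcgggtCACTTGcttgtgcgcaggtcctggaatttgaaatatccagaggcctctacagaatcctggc
Dmd, second start site: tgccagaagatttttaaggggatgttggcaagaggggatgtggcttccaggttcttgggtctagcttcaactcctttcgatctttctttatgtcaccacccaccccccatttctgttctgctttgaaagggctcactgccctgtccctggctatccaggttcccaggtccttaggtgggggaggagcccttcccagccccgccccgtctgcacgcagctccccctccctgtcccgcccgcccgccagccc
The first window held 2 E-box matches, 173 and 61 bases before the start, and 1 CArG match 98 bases before it. The second window held no match to either motif. An E-box match was found in 66.2% of all 32851 windows of this length in the table and a CArG match in 1.47%, with both strands searched and no overlap between the matches in Dmd. These are matches of letters only. The single Utrn window of the table ended at a base that was the start of a later exon in 2 other GENCODE transcripts, so it lay inside an intron of those and is not shown.

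Depth was between 39522890 and 56998875 counts per library. The values below are counts divided by size factors (normalized counts) unless TPM is named. One library, vehicle replicate 3, stood apart: its slow fiber markers summed to 11763 normalized counts against 1684 to 4011 in the other 5 libraries, and its Schwann cell markers to 5598 against 1579 to 2341. Its macrophage markers summed to 10734 against 2519 to 4092. Its TPM values were also 1.42 times as high per normalized count as the mean of the other libraries, which sat between 0.929 and 1.04. All 9 myofiber markers were detected and none of them was called. The lowest count behind any member value was 183, for Sntb1.

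No member of the complex passed a test of the difference between BML-260 and vehicle. A gene was called where its fold was 1.3 or more and its unadjusted p was under 0.05, and 0 of 8 members were called, beside 5.75% of the 16188 genes tested (4.86% lower and 0.896% higher with BML-260). No gene of the table passed an adjusted p under 0.05 in edgeR, while 95 passed it in DESeq2. In edgeR 966 (5.97%) had an unadjusted p under 0.05, among them 0 members. The smallest adjusted p among the members was 0.79. Values were higher with BML-260 for 5 members and lower for 3, and their median log2 fold change stood at 0.07 against -0.004 over all genes tested. A call that was not reached does not show that the levels were equal, so the 95% intervals are given with each gene. For 6 of 8 members the whole interval lay within a 2-fold change in either direction, the exceptions being Dmd and Sntb1. The median standard error of the log2 fold change was 0.17 over the members and 0.23 over all genes tested. The groups did not overlap for 1 of 8 members, Dag1, beside 12.1% of all genes (5.43% higher with BML-260).

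**Figure D1:**
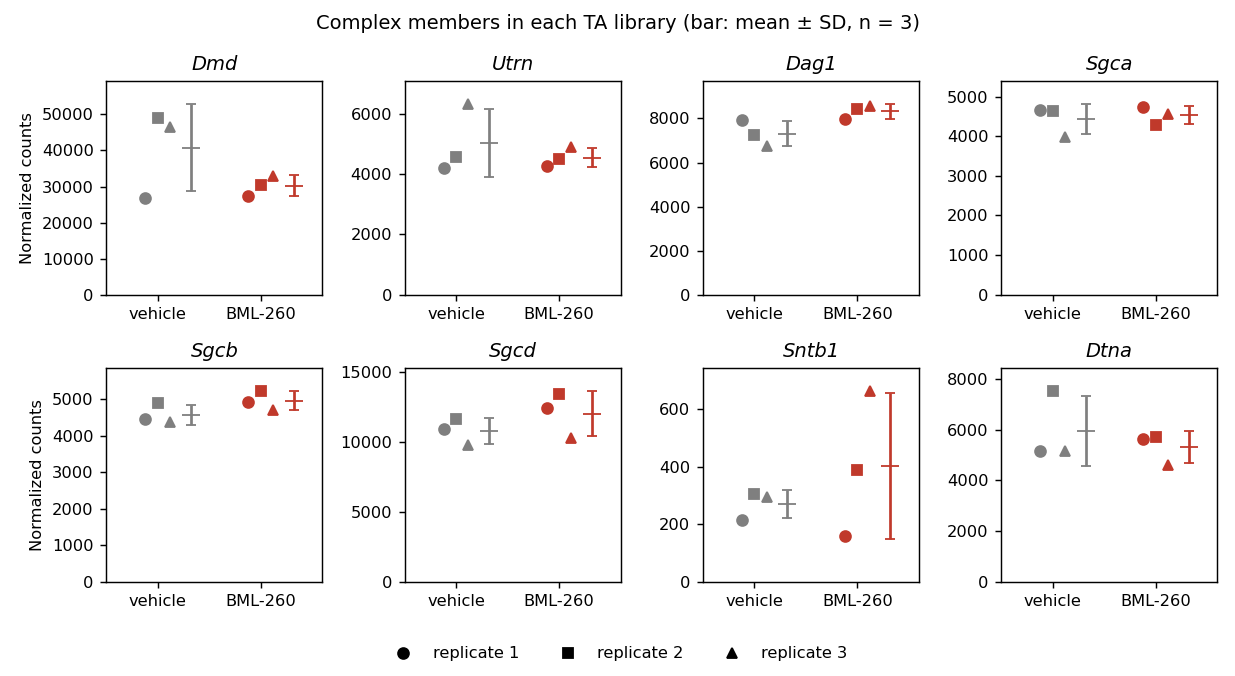
Normalized counts (y axis, from 0) of the 8 members in each library, with circles, squares and triangles for replicates 1, 2 and 3 and a bar for the mean ± SD of 3 libraries. Only Dag1 has every BML-260 library above every vehicle library, and the vehicle libraries of Dmd spread from 26842 to 48989.

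Dmd encodes dystrophin, the actin-binding member around which the complex is built. Normalized counts were 26842, 48989 and 46538 in vehicle replicates 1, 2 and 3, and 27314, 30435 and 32955 in BML-260 replicates 1, 2 and 3. The vehicle libraries fell into one low and a pair of high values, and the low one was below all 3 BML-260 libraries. The group means were 40790 ± 12141 for vehicle and 30235 ± 2826 for BML-260 (SD, n = 3). The log2 fold change was -0.43 (SE 0.25, 95% interval -1.01 to 0.15) with an adjusted p of 0.79 in edgeR's quasi-likelihood test. The result turned on vehicle replicate 1: without it the log2 fold change was -0.66 and Dmd passed the call threshold, although the adjusted p was 0.29 and 13.3% of all genes were called in that fit. Without vehicle replicate 2 it was -0.28.

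Utrn encodes utrophin, which can bind the same partners as dystrophin. The vehicle libraries gave 4204, 4587 and 6340 normalized counts and the BML-260 libraries 4261, 4517 and 4890. Vehicle replicate 3 was the highest, and the other 5 libraries lay together. The log2 fold change was -0.15 (SE 0.18, 95% interval -0.56 to 0.27, adjusted p = 0.84, edgeR), and without vehicle replicate 3 it was 0.05. Since vehicle replicate 3 also held the most Schwann cell and slow fiber transcripts, the share of these cells in the Utrn value was not tested. In whole muscle, fewer cells of a type and less RNA per cell cannot be told apart.

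Dag1 encodes the precursor of both dystroglycan subunits, the laminin receptor of the complex. Normalized counts were 7916, 7234 and 6771 with vehicle and 7956, 8448 and 8588 with BML-260. Every BML-260 library was above every vehicle library, with the closest pair almost level. The log2 fold change was 0.19 (SE 0.14, 95% interval -0.14 to 0.51, adjusted p = 0.79, edgeR), which is a 1.14-fold difference that did not pass the threshold. It stayed between 0.13 and 0.25 when each library was left out in turn. On TPM the groups overlapped, at 50.30, 44.15 and 59.91 with vehicle and 46.27, 55.93 and 56.55 with BML-260. The log2 fold change was 0.04 with limma on log2(TPM + 1).

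The sarcoglycans Sgca, Sgcb and Sgcd encode single-pass membrane proteins that assemble into 1 subcomplex beside dystroglycan. Sgca gave 4668, 4634 and 3984 normalized counts with vehicle and 4741, 4277 and 4570 with BML-260. Sgcb gave 4456, 4895 and 4384 with vehicle and 4938, 5232 and 4707 with BML-260. Sgcd gave 10936, 11630 and 9787 with vehicle and 12403, 13419 and 10245 with BML-260. These 3 genes varied little between libraries, with coefficients of variation between 5.18% and 13.5% within a group, and their groups overlapped. The log2 fold changes were 0.03 for Sgca (95% interval -0.29 to 0.35), 0.11 for Sgcb (-0.20 to 0.42) and 0.15 for Sgcd (-0.23 to 0.54). In each group the lowest Sgcd value was that of replicate 3. The signs of all 3 were negative when TPM was tested in place of counts (-0.16, -0.04 and -0.01), a scale on which the median of all genes also moved to -0.10.

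Sntb1 encodes beta-1-syntrophin, an adaptor for channels and kinases. It was the least abundant member and the most variable. Normalized counts were 215, 304 and 294 with vehicle and 158, 387 and 664 with BML-260, so the BML-260 group held both the lowest and the highest library. The log2 fold change was 0.57 (SE 0.44, 95% interval -0.44 to 1.57, adjusted p = 0.79, edgeR). It was -0.00057 without BML-260 replicate 3, and 0.96 without BML-260 replicate 1, where Sntb1 passed the call threshold with an adjusted p of 0.98 and 4.19% of all genes were called.

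Dtna, at chr18:23310006-23659719, encodes alpha-dystrobrevin, a dystrophin-related protein that binds dystrophin and the syntrophins. The vehicle libraries gave 5145, 7525 and 5167 normalized counts and the BML-260 libraries 5617, 5726 and 4593. Vehicle replicate 2 alone was above the rest. The log2 fold change was -0.17 (SE 0.20, 95% interval -0.61 to 0.28, adjusted p = 0.84, edgeR), and it was 0.04 without vehicle replicate 2.

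**Figure D2:**
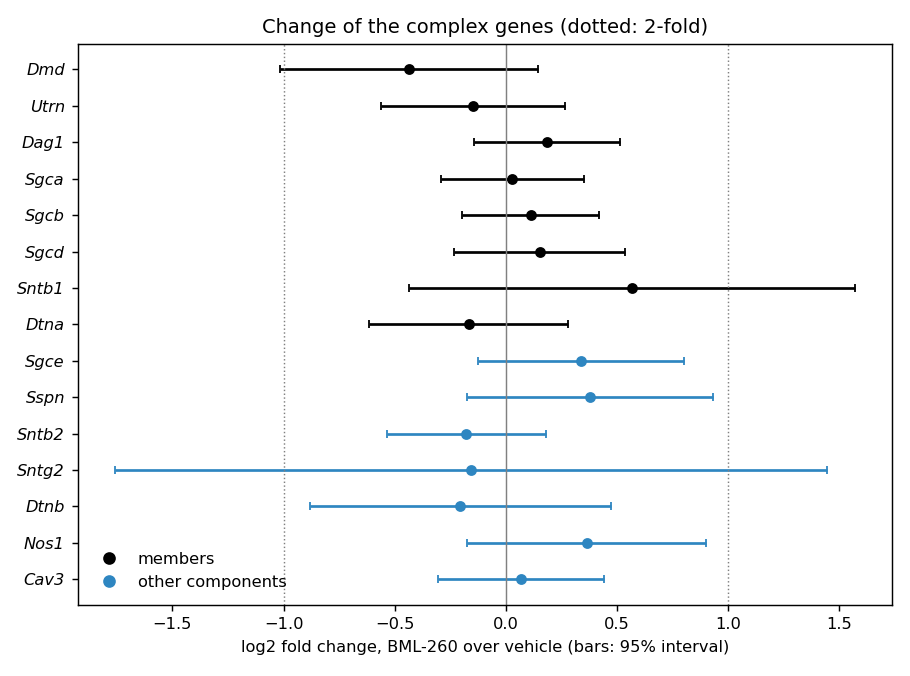
Log2 fold change of BML-260 over vehicle (x axis) with its 95% interval for the members (black) and the other complex components (blue), with dotted lines at a 2-fold change. Every interval includes 0, and among the members those of Dmd and Sntb1 reach past 2-fold.

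TPM, which is scaled for transcript length, was used to order the members by level. Over the 6 libraries the medians were 98.1 TPM for Sgca, 83.6 for Dmd, 53.8 for Dtna, 53.1 for Dag1, 44.9 for Sgcb, 44.3 for Sgcd, 12.5 for Utrn and 2.54 for Sntb1. Several neighbours in this order did not differ in every library. Sgca was above Dmd in 4 of 6 libraries, Dtna above Dag1 in 4, Dag1 above Sgcb in 5 and Sgcb above Sgcd in 3. Dmd was above Dtna, Sgcd above Utrn, and Utrn above Sntb1 in 6 of 6. Apart from Sntb1, Dmd had the widest range, from 63.8 to 165 TPM, with its highest value in vehicle replicate 3, where TPM ran high per normalized count.

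**Figure D3:**
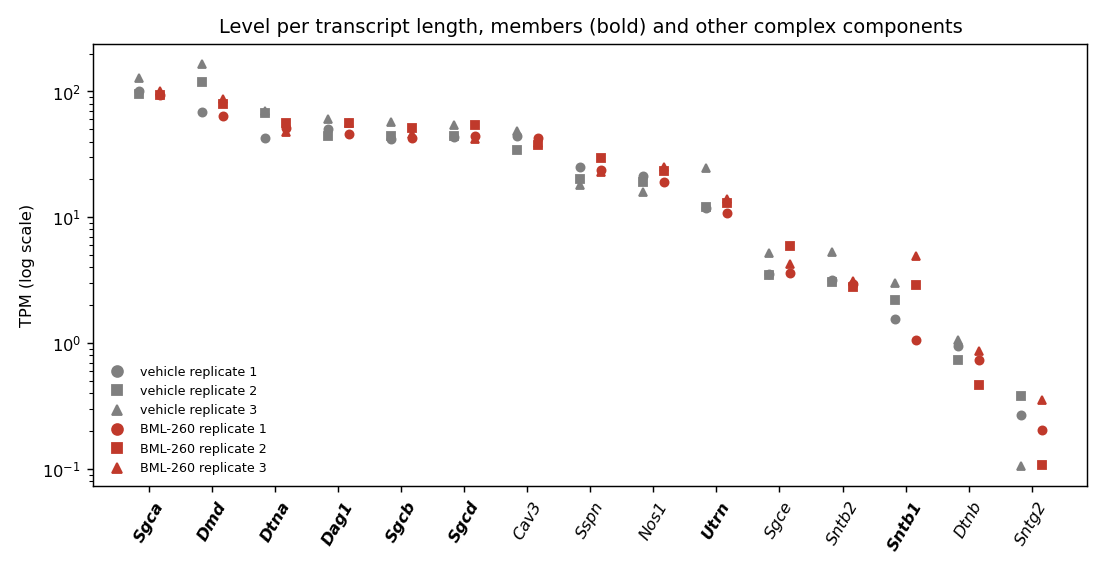
TPM on a log axis for the members (bold) and the other complex components, ordered by their median over 6 libraries, with vehicle in grey and BML-260 in red. The members Sgca and Dmd are at the top with medians of 98.1 and 83.6 TPM, and the members Utrn (12.5) and Sntb1 (2.54) stand lower.

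Ratios of TPM within a library remove the scale of that library. The Utrn to Dmd ratio was 0.172, 0.10 and 0.148 in the vehicle libraries and 0.169, 0.162 and 0.161 in the BML-260 libraries. The ratio of the group means was 1.17, and it moved between 1.02 and 1.32 when a library was left out. The Dag1 to Dmd ratio was 0.730, 0.368 and 0.363 with vehicle and 0.725, 0.699 and 0.649 with BML-260. Vehicle replicate 1 matched the BML-260 libraries in this ratio, while the other two vehicle libraries were lower than all of them. The sarcoglycan ratios moved less: Sgcb to Sgca lay between 0.421 and 0.544 in the 6 libraries, and Sgcd to Sgcb between 0.910 and 1.07. The groups overlapped in each of these ratios.

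**Figure D4:**
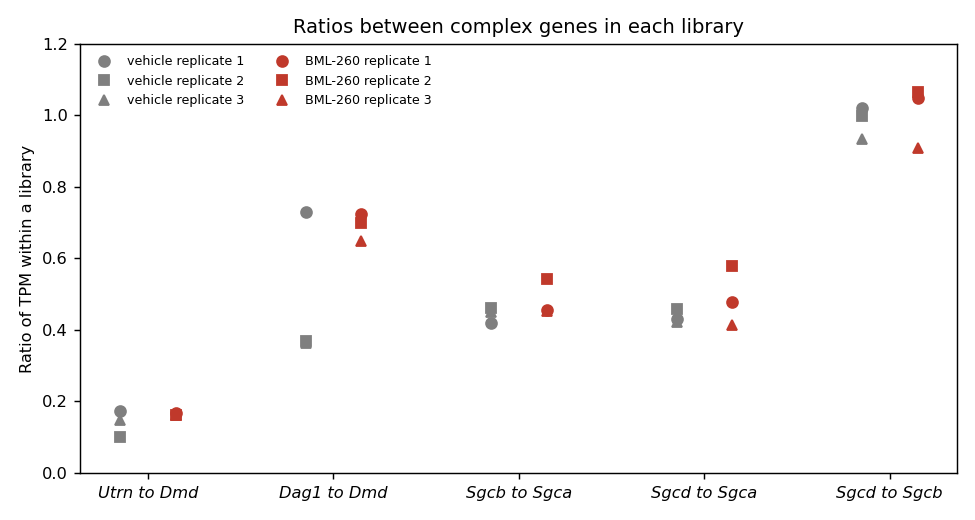
Ratio of TPM between pairs of complex genes in each library (y axis, from 0), with vehicle in grey and BML-260 in red. For Dag1 to Dmd, vehicle replicate 1 (0.730) sits with the BML-260 libraries (0.649 to 0.725) and the other vehicle libraries lie near 0.37.

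The reads behind 1 TPM follow the mean transcript length that was assumed for a gene in a library, and so vary where the mix of transcripts was estimated differently. For Dtna, which has 46 transcripts in RefSeq, this measure spread by 22.5% of its mean over the 6 libraries, a spread exceeded by 8.53% of 15627 genes. It was highest in vehicle replicate 1 (1.15 relative to the mean) and lowest in BML-260 replicate 3 (0.929), and the groups overlapped. Sgca followed with 7.46% and Sntb1 with 5.04%. The other 5 members lay between 0.687% and 2.50%, and the median gene at 2.58%.

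Likeness between genes was taken as the root mean square difference of log2 normalized counts, each centred on its own mean over the 6 libraries. It is a description over 6 points that share their libraries. The gene nearest to Dmd was Srek1 at 0.039, followed by Taf15, Rsad2, Fam214a and Smc5 at up to 0.087. Srek1, a splicing regulator, had 1933, 3569 and 3183 normalized counts with vehicle and 1950, 2263 and 2422 with BML-260, with the same low first vehicle library as Dmd. The genes nearest to Utrn were Rusc2 at 0.021, Paf1, Ssrp1, Aatf and Secisbp2l at up to 0.031. Among the members themselves, Sgcb and Sgcd were the closest pair at 0.086. Dmd had no member nearer than Utrn, at 0.258, and Sntb1 none nearer than Dag1, at 0.614.

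Of 9 other components of the complex examined, 7 were tested and none was called in either direction. Sgcz was at 0 counts in all 6 libraries and Sntg1 did not pass the filter. Values were higher with BML-260 for 4 of 7, and the median log2 fold change was 0.07. The groups did not overlap for 1 of 7, Sgce, beside 12.1% of all genes (5.43% higher with BML-260). Sgce, the epsilon-sarcoglycan, gave 176, 175 and 184 normalized counts with vehicle and 193, 279 and 207 with BML-260, a log2 fold change of 0.34 (95% interval -0.13 to 0.80). It was higher in all 3 BML-260 libraries, within an interval that includes 0. On TPM the groups overlapped, at 3.47 to 5.22 with vehicle and 3.63 to 5.94 with BML-260.

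Sspn encodes sarcospan, a tetraspan-like protein bound to the sarcoglycans, and Nos1 the neuronal nitric oxide synthase that the complex anchors at the membrane. Sspn gave 3143, 2670 and 1623 normalized counts with vehicle and 3273, 3626 and 2789 with BML-260. Nos1 gave 5846, 5463 and 3149 with vehicle and 5757, 6228 and 6667 with BML-260. For both, vehicle replicate 3 was the lowest library by a wide gap. The log2 fold changes were 0.38 for Sspn (SE 0.24) and 0.36 for Nos1 (SE 0.24), and without vehicle replicate 1 Sspn passed the call threshold, as did 13.3% of all genes. Without vehicle replicate 3 the median of the 7 other components was 0.0025, against 0.07 with all libraries. Sntb2 (-0.18), Sntg2 (-0.16) and the dystrobrevin Dtnb (-0.21) were lower and the caveolin Cav3 (0.07) higher with BML-260, and the 95% interval of each included 0.

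Of 65 partner genes tested in 5 lists, 3 were called and all 3 were lower with BML-260. Among all genes tested 5.75% were called, and 786 of those 931 genes were lower, so neither the count nor its direction stood out from the background. The extracellular ligands had 1 of 12 called, Bgn, which encodes the small proteoglycan biglycan that binds dystroglycan and sarcoglycans. Bgn fell from 1514, 1766 and 2661 normalized counts to 1326, 1030 and 1017, so that the groups did not overlap. Its log2 fold change was -0.82 (SE 0.22, 95% interval -1.33 to -0.31), with an adjusted p of 0.66 in edgeR. The laminin chains, agrin, perlecan and the nidogens of the list were not called. Egflam was not called in the main comparison in edgeR, with a log2 fold change of 0.62 (SE 0.29, 95% interval -0.04 to 1.29). Its groups did not overlap, with higher values under BML-260. It was called higher with DESeq2, with limma voom, without a filter on low counts and without vehicle replicate 1. In those fits 5.49% to 13.3% of all genes were called.

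None of 18 tested enzymes of dystroglycan glycosylation, which build the sugar chain that binds laminin, was called. Values were higher with BML-260 for 15 and lower for 3, and their median log2 fold change was 0.16. The largest were 0.50 for Pomk, a kinase of this chain, and -0.54 for Dpm1, which supplies mannose donors. Pomk gave 387, 328 and 175 normalized counts with vehicle and 423, 415 and 420 with BML-260. The lowest library of 10 of the 18 genes was vehicle replicate 3, and the median was 0.09 without it. Without vehicle replicate 1 the median was 0.31 and 1 gene was called lower and 4 higher, beside 13.3% of all genes called in that fit.

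Of 18 costamere and cytoskeletal linkers, 2 were called and both were lower, the keratin partners Krt8 and Krt18. Krt8 gave 64, 471 and 24 normalized counts with vehicle and 11, 7 and 12 with BML-260, and Krt18 gave 301, 1508 and 67 with vehicle and 24, 38 and 100 with BML-260. Vehicle replicate 2 was far above every other library for both. Raw counts of Krt8 were only 13, 7 and 10 in the BML-260 libraries. Without it the log2 fold changes were -2.10 for Krt8 and -1.78 for Krt18, against -4.18 (SE 1.08) and -3.56 (SE 1.05) with all libraries. The integrin, talin, vinculin, desmin, synemin, filamin and plectin genes of the list were not called in the main comparison in edgeR. The list's median was -0.13. The groups of the synemin gene Synm did not overlap, at 21089 to 30110 normalized counts with vehicle and 33150 to 36459 with BML-260. Its log2 fold change was 0.36 (SE 0.20). Synm was called higher without vehicle replicate 3 and with limma voom, beside 3.98% and 5.50% of all genes. Without vehicle replicate 1 Ank3 was called lower, beside 13.3% of all genes.

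Of 9 syntrophin-bound channels and signaling genes examined, none was called in the main comparison in edgeR. Values were higher with BML-260 for 7 and lower for 2, with a median of 0.23. The lowest library of 6 of the 9 genes was vehicle replicate 3, and the median was 0.02 without it. DESeq2 called 1 of the 9, Scn4a, higher, beside 6.31% of all genes called in that fit. Without vehicle replicate 1 edgeR called 3 of the 9 higher (Scn4a, Kcnj12 and Mapk12), beside 13.3% of all genes. The groups did not overlap for 1 of the 9, Scn4a, beside 12.1% of all genes. The water channel Aqp4 had the highest log2 fold change at 0.53 (SE 0.66), with 1957, 2217 and 206 normalized counts in the vehicle libraries and 2347, 2275 and 1739 in the BML-260 libraries. Vehicle replicate 3 was far below every other library. The cation channel Trpc1 had the lowest at -0.30 (SE 0.28). Of 8 membrane repair genes none was called in the main comparison in edgeR, while DESeq2 called Trim72 and Anxa1 lower and Capn3 higher. Without a filter on low counts Capn3 was called. Without vehicle replicate 1 Trim72 and Anxa5 were called lower and Capn3 higher, beside 13.3% of all genes. Without vehicle replicate 2 Trim72 and Anxa1 were called lower, beside 7.22% of all genes. The calpain Capn3 had the highest log2 fold change at 0.43 (SE 0.19) and the annexin Anxa1 the lowest at -0.77 (SE 0.40), with 2514 normalized counts in vehicle replicate 3 and 715 to 1044 elsewhere.

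**Figure D5:**
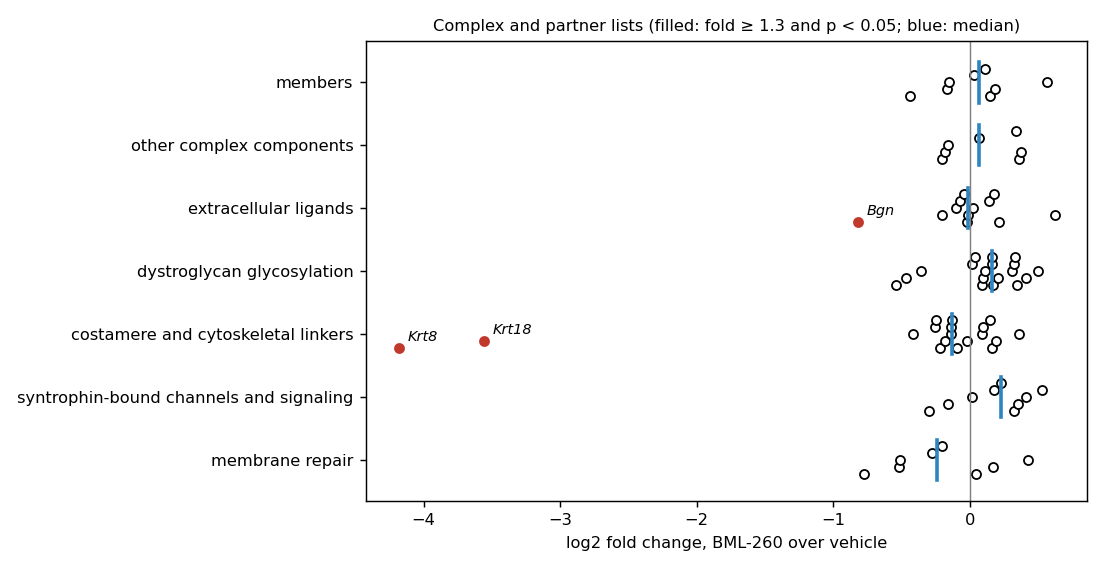
Log2 fold change of BML-260 over vehicle (x axis) for each tested gene of the complex and its partner lists, filled where the gene passed a fold of 1.3 with p under 0.05, with the list median in blue. The members and other components hold no filled point, and the 3 filled points (Bgn, Krt8 and Krt18) are all lower with BML-260.

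Some marker lists of other cell types and states differed between the groups. Among all genes tested, 4.86% were called lower with BML-260, and 12.1% had groups that did not overlap. Of 8 macrophage markers 7 were called lower with BML-260, and the list summed to 4092, 4084 and 10734 normalized counts in vehicle replicates 1, 2 and 3 against 2519 to 3058 with BML-260. The median log2 fold change of the list was -1.33, and without vehicle replicate 3 it was -0.64, with 6 of 8 called lower. Of 7 denervation markers 4 were called lower (Chrna1, Musk, Ncam1 and Runx1), and the list summed to between 5108 and 8896 with vehicle against 3874 to 4193 with BML-260. Neither sum overlapped between the groups. Of 6 tested regeneration markers 3 were called lower, while none of the endothelial, smooth muscle or Schwann markers was called. Of 7 fibroblast markers 1, Col1a1, was called lower, and it was not called without vehicle replicate 2, vehicle replicate 3, BML-260 replicate 2 or BML-260 replicate 3, nor with limma voom or on TPM. Of 6 slow fiber markers 1, Tnni1, was called lower, with a list median of -1.35. Without vehicle replicate 3 that median was 0.71, and 4 of the slow fiber markers and 3 of the 8 Schwann markers were called higher. In that fit 3.98% of all genes were called. The Schwann median was -0.30 with all libraries and 0.69 without vehicle replicate 3. The part of these cells and states in the values of Bgn, Krt8, Krt18 and the members was not tested. The sum over the 8 members was 64384 to 89798 with vehicle and 67389 to 72441 with BML-260, and so overlapped. The sum over the other components did not, at 6712 to 11183 with vehicle and 11308 to 11740 with BML-260. Nor did that of the syntrophin-bound list, at 28997 to 43924 and 45642 to 48535. In both, vehicle replicate 3 was the lowest library. The sums of the remaining partner lists overlapped.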

How the data were processed

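RNA-Seq of TA muscle was made from 3 vehicle and 3 BML-260 mice (total RNA, stranded TruSeq kit). Per the labels, the submitters' processing notes name StringTie 2.1.3b, HISAT2 2.1.0, Trimmomatic 0.38 and Bowtie2 2.3.4.1, and the build mm10. How strand and multi-mapped reads were counted is not given in the sources used here. The authors deposited raw counts per gene for all libraries and a TPM value per gene for each library, scaled for transcript length and library total. TPM values were used for levels, ratios and 3 of the alternatives. The members, lists and tests were chosen with earlier results of these data known.

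Counts were tested in edgeR 4.0.16 (R 4.3.3): filterByExpr kept 16188 genes with 99.9% of counts, libraries were TMM scaled, and the quasi-likelihood F-test was adjusted by Benjamini-Hochberg over all genes. The SE is the log2 fold change over the square root of F. Calls were a fold of 1.3 with unadjusted p under 0.05, and genes at an adjusted p under 0.05 were counted separately. Normalized counts are counts over DESeq2 1.42.0 size factors. Genes were named by rule: all members and other components, up to 5 called genes per partner list, and otherwise the extremes. Some genes called only under an alternative were also named. Some genes of the complex and its partners are not reported here and are left out of the lists and their counts. Limma 3.58.1 on log2(TPM + 1), DESeq2, other filters and leaving out each library were alternatives. The fit was checked on simulated counts. The p-values measure the spread between mice. Sequences are from RefSeq (GRCm38.p6): windows were read for 6 of 8 members. Windows on chr18, where Dtna lies, were not read.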

Additional observations from a re-analysis of the deposited data

How the results depend on the processing

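With 3 libraries per group, the intervals of 6 of the 8 members lay within 2-fold, and differences inside these intervals were not resolved. Genes at an adjusted p under 0.05 numbered 1 without a filter, 1 with at least 10 counts in every library, 1 with limma voom (quality weights), 95 with DESeq2 and 0 to 9 leaving out a library. Genes at a fold of 1.3 with p under 0.05, 931 here, numbered 1416 without a filter, 541 with limma on log2(TPM + 1), 446 on that scale without a filter, and 503 to 2223 leaving out a library. Members called were 0 to 1 leaving out a library (Dmd without vehicle replicate 1, Sntb1 without BML-260 replicate 1) and 0 under every other alternative run. The members' median log2 fold change was -0.098 with limma on log2(TPM + 1), with or without a filter, and -0.099 with a pseudocount of 0.1. Genes called among partners and other components, 3 here, were 8 with DESeq2, 5 without a filter and 5 with limma voom. They were 2 with at least 10 counts in every library, a filter that Krt8 did not pass. Leaving out a library they were 3 to 17 (17 without vehicle replicate 1, 6 without vehicle replicate 2). Signs of members turned as follows, and the cause was not tested. Sgca was -0.0441 without vehicle replicate 3, -0.0031 without BML-260 replicate 1 (-0.0441 to 0.0757 leaving out a library), -0.021 with limma voom, -0.158 on log2(TPM + 1) with or without a filter and -0.160 with a pseudocount of 0.1. Sgcb was -0.038 on all 3 TPM settings and Sgcd -0.0061, or -0.0063 with a pseudocount of 0.1. Leaving out a library, Dtna ranged from -0.26 to 0.043 (without vehicle replicate 2), Utrn from -0.26 to 0.046 (without vehicle replicate 3) and Sntb1 from -0.00057 (without BML-260 replicate 3) to 0.955. Dag1 and Dmd kept their direction in all 15 alternatives. Replicate numbers were not taken as pairing: deviations of same-numbered libraries correlated at 0.162, 0.054 and 0.110 across genes, each the highest for its number. With the replicate block 1057 genes and 0 members were called, the members' median was 0.072, and Krt18 had a log2 fold change of -2.92 and was no longer called (adjusted p = 0.68, edgeR), nor were the markers Col1a1, Tnni1, Cd163 and Myod1, while Capn3, Egflam, Chrng and Cldn5 were called.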
